A study of Mus musculus with 18 samples.

Results

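The uninduced Ncl-1 and Ncl-2 lines are a pair of stable mouse embryonic stem (ES) cell lines, each carrying an inducible siRNA against a different site of nucleolin (Ncl), grown without the inducer. They were chosen by their labels as the 3 arrays of group Ncl-1 -Tc and the 3 of group Ncl-2 -Tc, 6 of the 18 arrays of the series. The comparison asks how far lines made in parallel differ before knockdown. All 6 groups are CGR8 cells, an ES cell line of strain 129P2/Ola, with a stably integrated siRNA that tetracycline (Tc) induces. The siRNA is directed at EGFP, a jellyfish gene absent from mouse cells, or at nucleolin, and each of the 3 lines was cultured for 3 days with Tc (+Tc) or without it (-Tc). The integrated construct and the ES cell background are therefore common to all groups, controls included. The labels do not say whether a line is 1 clone or a pool, where the constructs integrated, or whether replicates were separate cultures, so the p-values cover only how these samples vary, and that variation may be technical.

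Nucleolin is an abundant nucleolar RNA-binding protein that takes part in the making of ribosomes. Stable lines pass through selection and expansion after the construct integrates, and ES cells in culture are known to gain and lose whole chromosomes or parts of them. ES cultures also hold a small, fluctuating population that expresses genes of the 2-cell embryo, among them Zscan4 and the Tcstv genes. These properties make the starting state of a line part of what any later comparison measures.

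Signals are log2 intensities of Illumina Mouse-6 version 2 BeadChips after background correction and quantile normalization, and differences are Ncl-1 minus Ncl-2, so that 1 on this scale is a 2-fold difference. Levels of different genes come from different probes and are not compared with each other. A gene was called when limma's Benjamini-Hochberg adjusted p, over the 10557 genes tested, was below 0.05. On the 6 arrays the mean raw intensity ran from 293 to 837 and 40.7% to 44.2% of probes were detected, and 8912 of the genes tested were detected on all 6. The number of arrays limits the precision. Pou5f1, Sox2 and Nanog, the core pluripotency factors, were detected on all 6 arrays, as were 31 of the 32 measured members of the pluripotency list.

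The targeted gene checks the labels for induction, though not for the line. Ncl (Entrez Gene 17975) had signals of 11.21, 11.80 and 12.10 on Ncl-1 -Tc replicates 1, 2 and 3, and of 10.93, 11.39 and 11.77 on those of Ncl-2 -Tc. With Tc its signals lay between 6.42 and 7.52 in both lines, below every uninduced array. Between the uninduced lines Ncl differed by 0.34 ± 0.22 (SE, n = 3 pairs, limma adjusted p = 0.838), with a difference of 0.29, 0.42 and 0.33 in the 3 pairs. By this probe Ncl was slightly higher in the Ncl-1 line in each pair, by an amount that did not pass the test. A second Ncl probe, detected on all 6 arrays, gave 0.58, 0.11 and -0.07.

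Replicate 3 went against the line labels, and the results below therefore say which replicates they rest on. The Ncl-1 minus Ncl-2 differences of pairs 1 and 2 correlated across the 10557 genes at r = 0.48 without Tc and r = 0.61 with Tc. Pair 3 correlated with pairs 1 and 2 at -0.21 and -0.08 without Tc, and at -0.48 and -0.57 with Tc. These are correlations across genes, which are not independent replicates, and the pairs share their normalization. Genes past 2-fold numbered 237 in pair 1, 95 in pair 2 and 894 in pair 3. Apart from direction, replicate 3 stood apart in every group, EGFP included. The authors' own normalized table has array medians of 9.95 to 9.99 in replicate 3 against 7.55 to 7.59 in replicates 1 and 2. Such levels of whole arrays do not bear on the direction between the lines. Whether the line labels of the replicate 3 arrays were exchanged was not tested, and all arrays keep the group that their labels give.

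**Figure D1:**
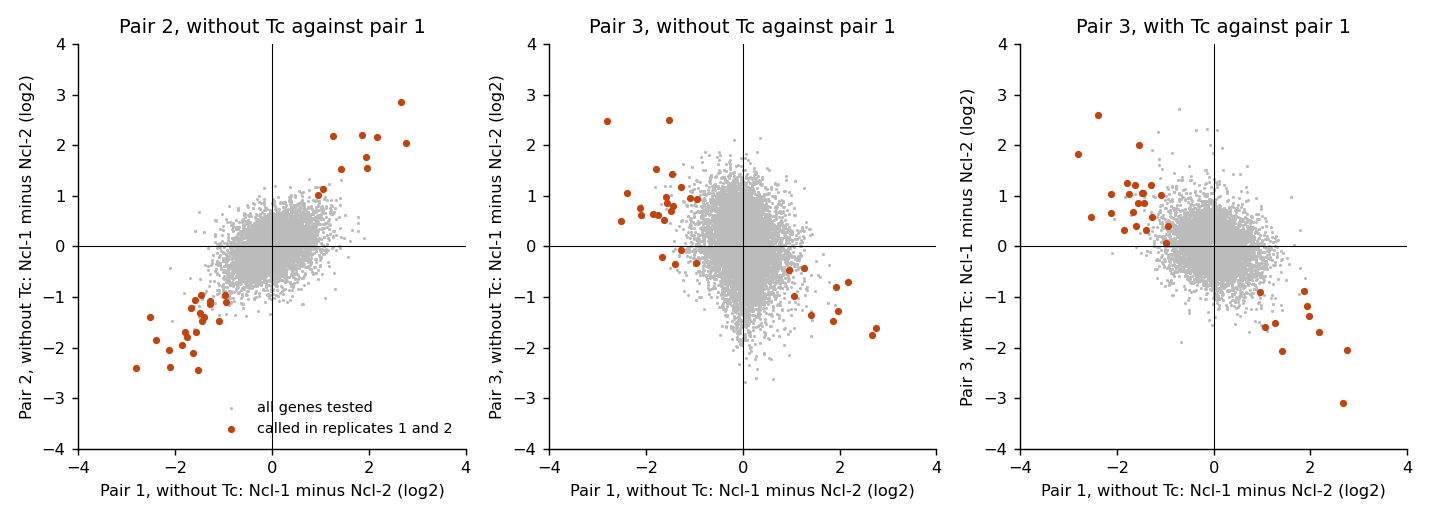
Each point is a gene, placed by its Ncl-1 minus Ncl-2 log2 difference in uninduced pair 1 (horizontal axis) and in uninduced pair 2, uninduced pair 3 or induced pair 3 (vertical axes); the 32 red genes were called in replicates 1 and 2. Pair 2 repeats the direction of pair 1 for all of them by construction of the call, whereas 28 of 32 lie on the opposite side in uninduced pair 3 and 32 of 32 in induced pair 3.

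With all 3 pairs, no gene was called between the uninduced lines. limma called 0 of 10557 genes (0%), with 511 at an unadjusted p under 0.05 and a lowest adjusted p of 0.838. With Tc the same comparison of the lines also called 0 genes (0%; 267 at an unadjusted p under 0.05), and the test of whether the line difference changed with Tc called 0 (0%; 299 unadjusted). The median absolute difference between the uninduced lines was 0.16, and 14 genes were past 2-fold. For 9669 genes (91.6%) the 95% confidence interval of the difference lay within 2-fold in either direction. In pair 3, 45.8% of all genes kept the sign they had in replicates 1 and 2. For the other genes the fitted difference averages values of opposite sign. Whether this changed the count of calls was not tested.

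With replicates 1 and 2 alone, a small set of named genes separated the lines. limma called 32 of 10557 genes (0.303%), 10 higher in the Ncl-1 line (0.0947%) and 22 lower (0.208%), with differences from 0.97 to 2.76 in size. The genes with the smallest p-values were Slc9a3r2 on chromosome 17, which encodes a PDZ scaffold protein, and, in the other direction, the chromosome 13 gene Gm20767 and the X-linked Tex13b. The median absolute difference was 0.16, 81 genes were past 2-fold, and for 9098 genes (86.2%) the 95% interval lay within 2-fold. The 32 calls come from a fit whose spread was estimated over the EGFP and induced arrays as well, with 5 residual degrees of freedom. Fits of fewer arrays leave fewer of these, so lower counts there do not show what the calls rest on. With only the uninduced arrays of both lines, or of the 3 lines, limma called 0, and leaving out 1 of the 4 arrays compared left 1 to 5. Without the replicate number as a block 3 were called.

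The direction of these 32 genes was also read in the induced pairs and in pair 3. The induced arrays of replicates 1 and 2 entered the spread that the calls rest on, though not the differences called, while replicate 3 took no part. On the induced arrays all 32 had the same sign in pair 1 and all 32 in pair 2, where 53.9% and 58.4% of all genes did. In uninduced pair 3 the sign was kept by 4 of 32 genes against 45.8% of all genes, and in induced pair 3 by 0 of 32 against 42.5%. The induced comparison in replicates 1 and 2 called 313 genes (2.96%), 28 of which were among the 32 and all 28 in the same direction, 87.5% of the uninduced list and 8.95% of the induced one. The fits share their estimate of the spread but the comparisons share no array. The interaction in these replicates called 1 gene (0.00947%).

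Neighbouring genes of chromosome 17 were lower in the Ncl-2 line in replicates 1 and 2. Slc9a3r2 (Entrez Gene 65962) had signals of 8.86, 8.40 and 6.33 on Ncl-1 -Tc replicates 1 to 3 and of 6.10, 6.36 and 7.94 on those of Ncl-2 -Tc. The Ncl-1 line was thus high in replicates 1 and 2 and low in replicate 3, the Ncl-2 line the reverse, and the groups overlap. The difference was 2.40 ± 0.19 (SE, n = 2 pairs, limma adjusted p = 0.00293) in replicates 1 and 2 and 1.06 ± 0.73 (adjusted p = 0.838) with replicate 3. Tsc2, which encodes tuberin, the inhibitor of mTORC1, had 11.53, 11.16 and 10.16 in the Ncl-1 line and 9.60, 9.40 and 10.97 in the Ncl-2 line, with a difference of 1.85 ± 0.21 (adjusted p = 0.00757) without replicate 3 and 0.96 ± 0.54 (adjusted p = 0.838) with it. A second Tsc2 probe gave 2.16, 1.89 and -0.76 in the 3 pairs. Nthl1, a DNA glycosylase of base excision repair, differed by 1.76 ± 0.26 (adjusted p = 0.0372) without replicate 3 and by 0.75 ± 0.59 (adjusted p = 0.838) with it.

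These 3 genes are neighbours, and the measured genes on either side, from Pkd1 to Zfp598, make a run of 6 that was delimited after its values were seen, so that it gets no test. The others are Pkd1, which encodes polycystin 1, Npw, a neuropeptide gene, and Zfp598, a ubiquitin ligase that marks collided ribosomes. All 6 were higher in the Ncl-1 line in pairs 1 and 2, with medians of 1.68 and 1.44, and all 6 were lower in pair 3, with a median of -1.15. With Tc the medians were 2.19, 2.06 and -1.22. Against the EGFP line of the same replicate number, the Ncl-2 arrays of replicates 1 and 2 had run medians of -1.68 and -1.90 and the Ncl-1 arrays 0.20 and -0.30. On replicate 3 the Ncl-1 array stood at -0.93 and the Ncl-2 array at 0.16.

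The transcription start regions of Nthl1 and Tsc2 face away from each other and overlap, and they are shown because both genes were low on the same arrays. The sequences are RefSeq's, build GRCm38.p6, from 250 bases before to 50 after a start site, with the 154 bases that the windows share in capitals. Nthl1 lies at chr17:24632432-24632731 on the plus strand and Tsc2 at chr17:24632578-24632877 on the minus strand.
Nthl1: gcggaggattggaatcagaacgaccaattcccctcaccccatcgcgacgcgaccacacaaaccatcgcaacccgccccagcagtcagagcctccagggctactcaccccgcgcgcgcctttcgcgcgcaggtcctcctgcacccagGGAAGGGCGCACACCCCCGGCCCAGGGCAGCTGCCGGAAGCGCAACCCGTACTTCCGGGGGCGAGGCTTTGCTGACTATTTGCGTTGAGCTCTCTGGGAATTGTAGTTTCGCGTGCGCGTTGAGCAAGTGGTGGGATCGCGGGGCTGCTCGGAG
Tsc2: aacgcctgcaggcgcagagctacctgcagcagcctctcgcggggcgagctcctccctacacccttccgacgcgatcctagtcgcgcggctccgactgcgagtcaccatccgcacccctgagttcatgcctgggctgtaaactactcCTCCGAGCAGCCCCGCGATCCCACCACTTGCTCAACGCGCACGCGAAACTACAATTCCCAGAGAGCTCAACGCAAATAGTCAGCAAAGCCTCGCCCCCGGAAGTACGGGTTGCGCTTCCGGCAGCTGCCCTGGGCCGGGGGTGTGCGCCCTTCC
One stretch of DNA thus holds the start regions of Nthl1 and Tsc2. Transcription factor binding there was not measured.

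Among genes of the 2-cell stage, 4 of the 10 measured were called lower in the Ncl-1 line in replicates 1 and 2, where 0.208% of all genes were. The other 6 did not pass the test, and 0 of the 10 were called with replicate 3. The list names 23 genes, and 5 of the 10 measured were detected on all 6 arrays. The list median was -0.69, -0.72 and 0.64 in pairs 1, 2 and 3, against 0.01, -0.01 and 0.02 over all genes. In these bulk samples fewer cells of a kind and less RNA per cell cannot be told apart.

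Zscan4c, a zinc finger gene linked to telomere maintenance in ES cells, had signals of 10.85, 10.18 and 12.34 in the Ncl-1 line and 12.65, 11.87 and 10.81 in the Ncl-2 line. Its difference was -1.74 ± 0.16 (SE, n = 2 pairs, limma adjusted p = 0.00337), and -0.65 ± 0.55 (adjusted p = 0.841) with replicate 3. Tcstv3 had 7.44, 6.77 and 9.53 against 9.57, 8.82 and 8.77, a difference of -2.09 ± 0.19 (adjusted p = 0.00337), and -1.14 ± 0.55 (adjusted p = 0.838) with replicate 3. On replicates 1 and 2 both genes were higher on each Ncl-2 array than on each Ncl-1 array, and with replicate 3 the groups overlap. Tcstv1 and Gm428 were the other called members of the list, at -1.63 and -1.28. Of the members not called, Tdpoz2 had -0.79, Tdpoz4 -0.56, Tdpoz1 -0.54, Arg2 -0.23, Tdpoz3 -0.13 and Zfp352 -0.03.

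On chromosome 13, 6 of 364 measured genes were called in replicates 1 and 2, where 0.303% of all genes were, and these 6 were lower in the Ncl-1 line, as were 22 of all 32 called genes. Besides Tcstv1 and Tcstv3 they are Gm20767 (-2.24), AF067061 (-1.87), AF067063 (-1.96) and BC147527 (-1.40, detected on 1 of the 2 Ncl-1 arrays of replicates 1 and 2). With replicate 3 the 6 differences lay between -1.29 for Gm20767 and -0.70 for BC147527, with 0 called. The AF067063 probe used was not detected on either Ncl-1 array of replicates 1 and 2, and a second probe, detected on 5 of the 6 arrays, gave -1.96, -1.01 and 0.52 in the 3 pairs. The Tcstv and Zscan4 genes have near-identical copies, so a probe may read several of them and these genes are not independent. A dim second Zscan4c probe, detected on 2 of the 6 arrays, gave 0.36, 0.04 and 1.56. In both lines the 2-cell genes stood above the EGFP line in replicates 1 and 2, with list medians of 0.37 for Ncl-1 and 1.20 for Ncl-2 (0.80 and 0.92 with replicate 3), comparisons that share the EGFP arrays.

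Start regions of 5 called genes, picked after their values were seen, were read for TGATTNAAT, the first letters of the motif bound by mouse Dux, an activator of 2-cell genes. Among all 32851 RefSeq windows of 300 bases 0.718% hold these letters on either strand. They occur in the windows of Zscan4c (chr7:11005495-11005794), AF067061 (chr13:120262845-120263144) and Pramel20 (chr4:143567217-143567516), all on the plus strand of GRCm38.p6 and shown here with the matches in capitals, and not in those of BC147527 and Gm428.
Zscan4c: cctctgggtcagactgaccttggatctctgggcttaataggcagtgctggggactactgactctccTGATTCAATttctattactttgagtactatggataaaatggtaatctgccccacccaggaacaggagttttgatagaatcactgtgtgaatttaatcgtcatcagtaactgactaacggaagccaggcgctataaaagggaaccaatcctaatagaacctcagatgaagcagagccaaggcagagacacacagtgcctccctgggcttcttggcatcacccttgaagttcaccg
AF067061: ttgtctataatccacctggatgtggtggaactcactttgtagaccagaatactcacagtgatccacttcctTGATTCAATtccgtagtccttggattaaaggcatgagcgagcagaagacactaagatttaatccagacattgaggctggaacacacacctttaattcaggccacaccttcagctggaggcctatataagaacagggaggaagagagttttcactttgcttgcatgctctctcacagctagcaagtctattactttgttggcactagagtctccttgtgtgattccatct
Pramel20: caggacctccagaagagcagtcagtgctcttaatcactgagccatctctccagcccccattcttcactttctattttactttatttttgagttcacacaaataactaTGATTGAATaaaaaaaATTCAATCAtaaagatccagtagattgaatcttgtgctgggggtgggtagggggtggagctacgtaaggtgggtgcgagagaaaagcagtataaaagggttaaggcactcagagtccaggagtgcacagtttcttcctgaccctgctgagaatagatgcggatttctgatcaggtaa
Of the 5 genes, Zscan4c and Gm428 are on the 2-cell list and the others are on none. A window was on hand for 23 of the 32 called genes, and the letters occur in 3 of these. Of all 27025 genes with a window, 0.84% hold the letters in any of their windows. Pramel20, a member of the Prame-like family, was lower in the Ncl-1 line by 1.06 to 1.59 in the pairs of replicates 1 and 2, and its difference was -0.56 with replicate 3. A match describes these letters only.

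**Figure D2:**
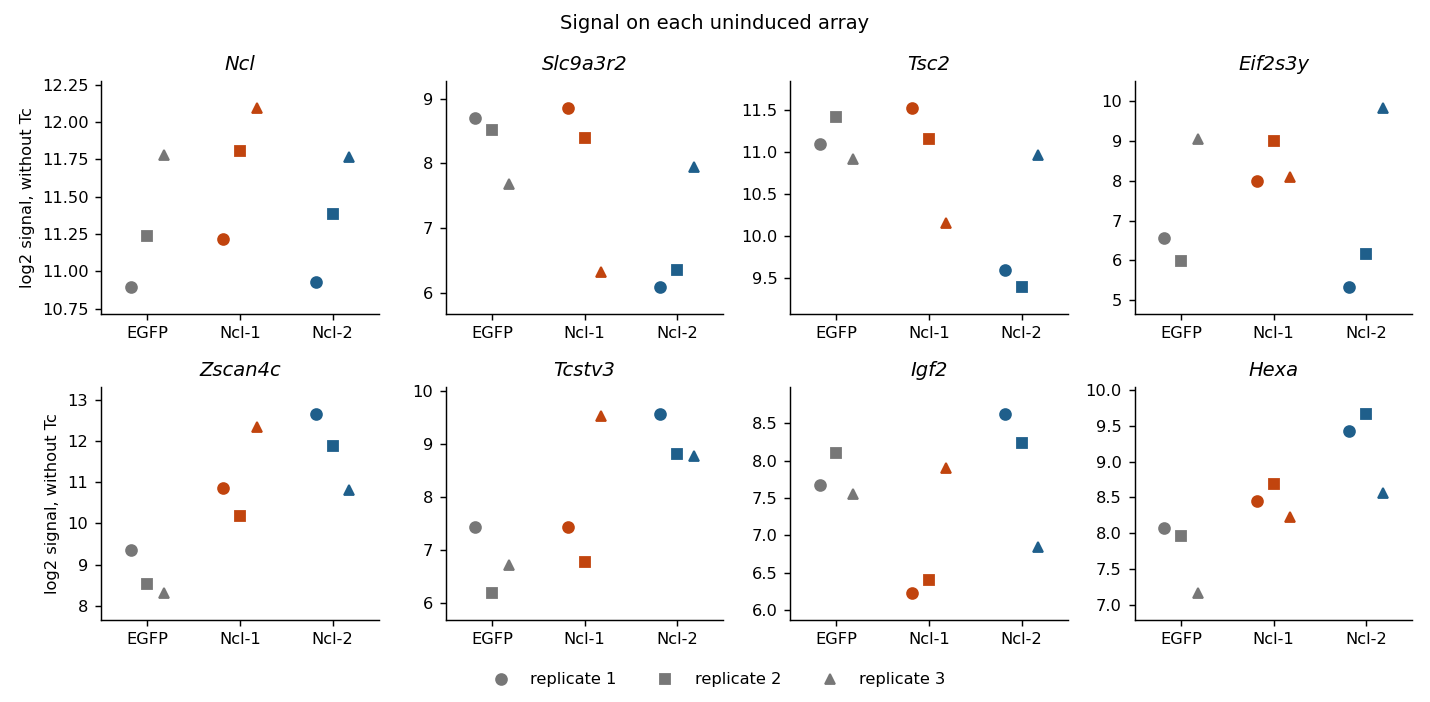
Log2 signal of 8 genes on the 9 arrays without Tc, by line, with a symbol for each replicate number. For Slc9a3r2, Tsc2, Zscan4c and Igf2 the Ncl-1 and Ncl-2 triangles of replicate 3 take each other's side relative to the circles and squares, while Hexa keeps its order in all 3 pairs.

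Sex-chromosome genes were among the largest differences. Eif2s3y, the Y-linked gene of a translation initiation factor subunit, had 8.0, 9.01 and 8.08 on the Ncl-1 arrays and 5.33, 6.15 and 9.83 on the Ncl-2 arrays, detected on all 6. Its difference was 2.76 ± 0.35 (SE, n = 2 pairs, limma adjusted p = 0.0141), and 1.26 ± 0.89 (adjusted p = 0.838) with replicate 3. In the EGFP line it had 6.56, 5.98 and 9.05, so that replicate 3 stood high there as well. It was the 1 measured gene of the Y-linked list of 10, and no probe of Xist passed the filter. On the X chromosome, Tex13b was lower in the Ncl-1 line by 2.60 ± 0.23 (adjusted p = 0.00293; a dimmer probe, detected on 2 arrays, gave -0.78, -0.04 and 1.51 in the 3 pairs), Xlr4a was higher by 1.48 ± 0.16 (adjusted p = 0.00672) and Efhc2 by 2.17 ± 0.22 (adjusted p = 0.00445). With replicate 3 these 3 had -0.91, 0.53 and 1.21, and none was called. Efhc2 was detected on 1 of the 2 Ncl-2 arrays of replicates 1 and 2. Its difference in these replicates ran from 1.45 to 4.27 under other processing. The median of the 352 measured genes of the X chromosome was -0.01 in replicates 1 and 2 and 0.06 with replicate 3.

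The remaining called genes have unrelated roles. Igf2, an imprinted growth factor gene, had 6.23, 6.40 and 7.89 in the Ncl-1 line and 8.62, 8.24 and 6.84 in the Ncl-2 line, a difference of -2.12 ± 0.33 (SE, n = 2 pairs, limma adjusted p = 0.042) without replicate 3 and -1.06 ± 0.79 (adjusted p = 0.838) with it. It was the 1 gene called in replicates 1 and 2 among 27 measured imprinted genes, where 0.303% of all genes were called. The median of the imprinted genes was 0.01 (-0.03 with replicate 3). Mlkl, the effector of necroptosis, Hspb8, a small heat shock protein, and Tnfrsf22, a decoy receptor, were lower in the Ncl-1 line at -1.21, -1.02 and -1.45. For Tnfrsf22, 3 other probes gave differences between -0.31 and 0.58 in the 3 pairs. Wdr20rt and Zfp951 were higher in the Ncl-1 line, at 1.09 and 1.73, and Gm4971, Skida1 and the glycosyltransferase gene B4galnt2 were lower, at -1.77, -1.99 and -1.90, with B4galnt2 detected on 1 of the 2 Ncl-1 arrays. With replicate 3 the differences of these 8 genes ran from -1.06 for B4galnt2 to 1.01 for Zfp951, with 0 called. Nkx2-4, a homeobox gene, was detected on both Ncl-1 arrays and neither Ncl-2 array of replicates 1 and 2 and was at least 3.32-fold higher in the Ncl-1 line (adjusted p = 0.00378). Plat, the tissue plasminogen activator, was at least 2.06-fold lower in it (adjusted p = 0.042). With replicate 3 their fitted differences were 0.86 and -0.40 (adjusted p = 0.838 and 0.874).

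The 4 called genes that kept their direction in uninduced pair 3 were Fetub, Hexa, S100a1 and AA467197, all lower in the Ncl-1 line. In induced pair 3 they had the opposite sign, with 0.33, 0.06, 0.68 and 0.58. Hexa, which encodes the alpha subunit of lysosomal hexosaminidase, had 8.45, 8.69 and 8.23 on the Ncl-1 arrays and 9.42, 9.66 and 8.56 on the Ncl-2 arrays. Its difference was -0.97 ± 0.15 (SE, n = 2 pairs, limma adjusted p = 0.042), and -0.76 ± 0.18 (adjusted p = 0.838) with all 3 pairs. The Ncl-1 array was lower within each uninduced pair, and the highest Ncl-1 value, 8.69, stood above the lowest Ncl-2 value, 8.56. Fetub, which encodes fetuin-B, differed by -1.40, -1.39 and -0.34 in the 3 pairs, and the fit over all of them gave -1.04 ± 0.23 (adjusted p = 0.838). S100a1, a calcium-binding protein gene, had -1.67, -1.21 and -0.21, and AA467197 had -1.28, -1.14 and -0.07 (adjusted p = 0.0123 and 0.037 without replicate 3, 0.838 for both with it), so that pair 3 was the smallest in each of the 4 genes.

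The end of chromosome 16 was lower in the Ncl-2 line on the arrays of replicates 1 and 2. In windows of 25 neighbouring measured genes along all chromosomes, the median difference farthest from 0 was 0.73, from Atp5o to C2cd2, and outside that stretch it was -0.38, on chromosome 3 from Chtop to Tuft1. The stretch was delimited after its values were seen, from Tmem50b to Zbtb21, the last measured gene, and holds 33 genes, of which 32 had a positive difference in the fit of replicates 1 and 2. It gets no test as a group. Get1, which helps to insert tail-anchored proteins into the endoplasmic reticulum, was the 1 gene called in it, where 0.303% of all genes were called. Its difference was 0.98 ± 0.15 (SE, n = 2 pairs, limma adjusted p = 0.0397), and 0.50 ± 0.34 with replicate 3 (adjusted p = 0.838).

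On the induced arrays the median of the 33 genes was 0.79 in pair 1 and 0.79 in pair 2, with 32 and 33 of the genes positive, and -0.74 in pair 3, with 33 negative. In uninduced pair 3 it was -0.59, with 29 negative, against 0.65 and 0.73 in pairs 1 and 2. The 33 measured genes just before Tmem50b had medians of 0.07, 0.14 and 0.14 in the uninduced pairs.

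Set against the EGFP line, the low arrays of this stretch stood at a similar level in each replicate. The median of the 33 genes over the EGFP array of the same number was -0.69 and -0.65 for Ncl-2 -Tc replicates 1 and 2 and -0.71 for Ncl-1 -Tc replicate 3. It was -0.04 and 0.03 for Ncl-1 -Tc replicates 1 and 2 and -0.16 for Ncl-2 -Tc replicate 3. With Tc, Ncl-2 replicates 1 and 2 had -1.03 and -0.78 and Ncl-1 replicate 3 had -0.997, while Ncl-1 replicates 1 and 2 had -0.24 and -0.10 and Ncl-2 replicate 3 had -0.28. The genes have varied roles. Gart, of purine synthesis, had a difference of 0.88 in replicates 1 and 2 (adjusted p = 0.0905), Ets2, a transcription factor, 1.21 (adjusted p = 0.104), and Son, a splicing factor, 0.86 (adjusted p = 0.155). With replicate 3 these 3 had 0.20, 0.67 and 0.25, with 0 called. DNA copy number was not measured, and its part in these values was not tested.

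**Figure D3:**
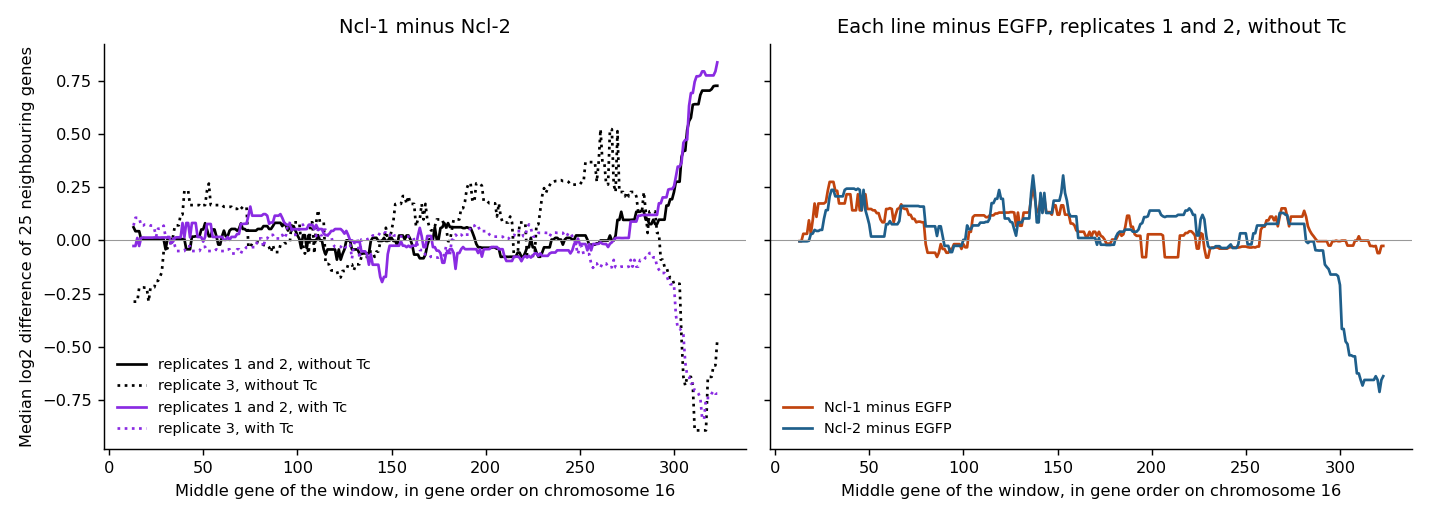
Median log2 difference in windows of 25 neighbouring measured genes along chromosome 16, in gene order. Left, between the lines for replicates 1 and 2 and for replicate 3, with and without Tc. Right, each uninduced line minus EGFP for replicates 1 and 2. At the end of the chromosome the lines part, up to 0.73 in the uninduced replicates 1 and 2 and below 0 in replicate 3. Over the stretch the Ncl-2 line leaves the EGFP level in replicates 1 and 2. Replicate 3 is not drawn against EGFP, where the median of the stretch was -0.71 for Ncl-1 and -0.16 for Ncl-2.

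Whole chromosomes had median differences near 0 between the lines. The medians of the 19 autosomes and X lay between -0.03 and 0.06 with all 3 pairs, and between -0.07 and 0.04 with replicates 1 and 2. In pair 3 alone they ran from -0.13 on chromosome 17 to 0.17 on X. Both lines did differ from the EGFP line on the same chromosomes. The median of the 495 measured genes of chromosome 6 was -0.46 in Ncl-1 and -0.44 in Ncl-2, relative to EGFP -Tc. For the 925 genes of chromosome 11 the medians were -0.32 and -0.30, and for the 575 of chromosome 8 they were -0.27 and -0.22. Both comparisons share the EGFP arrays, so the values stand side by side as a description. With Tc, on separate arrays, the medians over the 3 replicates were -0.49 and -0.49 on chromosome 6, -0.35 and -0.37 on chromosome 11 and -0.26 and -0.24 on chromosome 8. Replicate 3 ran the same way as the others here, with -0.45 for either line on chromosome 6.

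**Figure D4:**
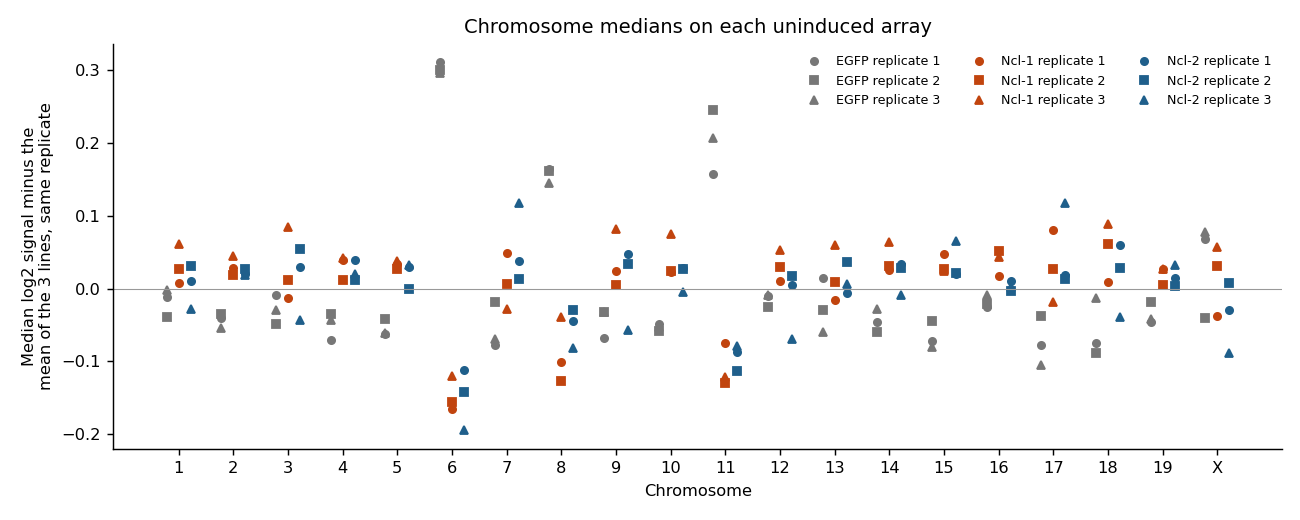
Median log2 signal of the genes of each chromosome on each array without Tc, minus the mean of the 3 lines in the same replicate. The EGFP arrays (grey) stand above both nucleolin lines on chromosomes 6, 8 and 11 in all 3 replicates. On other chromosomes the replicate 3 arrays of the nucleolin lines can lie as far from each other as from EGFP, as on chromosome 7, with -0.03 for Ncl-1, 0.12 for Ncl-2 and -0.07 for EGFP.

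In replicates 1 and 2 the nucleolin lines were closer to each other than either was to the EGFP line. In pair 3 they differed past 2-fold in 894 genes, and sizes against EGFP are not given for that replicate. With all 3 pairs the fitted difference between the nucleolin lines averages values of opposite sign for many genes. With all 3 pairs limma called 910 genes between Ncl-1 -Tc and EGFP -Tc (8.62%; 434 higher and 476 lower in Ncl-1) and 1287 between Ncl-2 -Tc and EGFP -Tc (12.2%; 608 higher and 679 lower). In replicates 1 and 2 it called 701 (6.64%) and 648 (6.14%), against the 32 between the nucleolin lines, with 407 and 395 genes past 2-fold against 81. Median absolute differences there were 0.24, 0.25 and 0.16. Without the replicate block the all-pair counts were 104 and 98, and leaving out 1 array gave 427 to 1051 and 471 to 1422. The counts come from 1 fit, in which each pair of comparisons shares the arrays of 1 line, and the difference between counts was not tested. Of the genes called lower than in EGFP with all 3 pairs, 65.8% of the 476 in Ncl-1 and 62.9% of the 679 in Ncl-2 lay on chromosomes 6, 8 and 11. These chromosomes hold 18.9% of the genes tested.

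**Figure D5:**
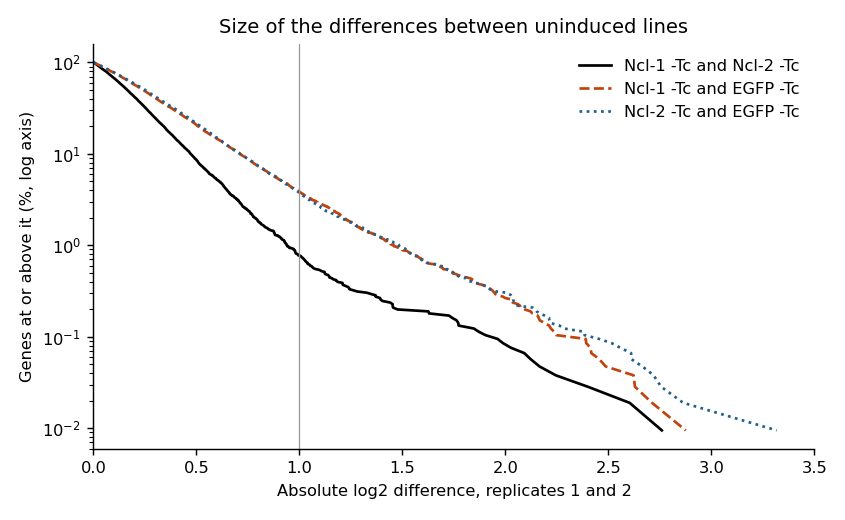
Share of the 10557 genes (log axis) whose absolute log2 difference in replicates 1 and 2 reaches the value on the horizontal axis, for the 3 comparisons of uninduced lines; the vertical line marks 2-fold. At that line the curve of Ncl-1 against Ncl-2 stands at 81 genes and the curves against EGFP at 407 and 395.

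Calls among the members of the pathway and cell type lists are set beside the share of all genes called. That share was 0% with all 3 pairs and 0.303% in replicates 1 and 2. At such shares a list of these sizes usually holds no called gene, so a count of 0 is no result about a list. Of 31 gene lists, 0 had a called member with all 3 pairs and 6 had at least 1 in replicates 1 and 2. These were the 2-cell, trophectoderm, imprinted, Y-linked, heat shock and matrix lists. The trophectoderm and imprinted lists share their called gene, Igf2. In replicates 1 and 2 the median lay within 0.1 of 0 for 18 of the 31 lists, and with all 3 pairs for 22. Besides the 2-cell and Y-linked lists, those farthest from 0 in replicates 1 and 2 were epiblast at 0.27, histones at -0.27, Nodal and TGF-beta targets at 0.26 and the integrated stress and unfolded protein response at -0.26, each with 0 called. With all 3 pairs these 4 had 0.17, -0.51, 0.14 and -0.05. The trophectoderm list had -0.20, fibroblast or feeder markers -0.18, sterol biosynthesis -0.17 and Wnt targets 0.16, and with all 3 pairs -0.07, -0.0037, -0.08 and 0.13. In replicates 1 and 2 the pluripotency list had a median of 0.05 over 32 genes, nucleolus and ribosome assembly 0.05 over 42, cytosolic ribosomal proteins -0.01 over 51 and p53 targets 0.04 over 33, with 0 called in each, and with all 3 pairs 0.03, 0.06, -0.09 and -0.06. Pou5f1 differed by 0.19, 0.19 and -0.41 in the 3 pairs, Sox2 by 0.15, -0.23 and -0.17, and Nanog by 0.07, 0.14 and 0.25. A second Sox2 probe, detected on all 6 arrays, gave 0.46, 0.35 and 0.32, the other direction in pairs 2 and 3. Npm1, a nucleolar partner of ribosome assembly, differed by 0.21 ± 0.15, and the p53 targets Cdkn1a by -0.31 ± 0.23 and Mdm2 by 0.18 ± 0.25 (SE, n = 3 pairs, limma adjusted p = 0.838, 0.838 and 0.897). The fibroblast or feeder list had 9 measured members and the primitive endoderm list 16, the latter with a median of -0.06 in replicates 1 and 2 and -0.09 with all 3 pairs, and 0 were called in either.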

How the data were processed

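Biotinylated cRNA was made from Trizol-extracted, DNase I-treated total RNA and hybridised to 18 one-colour BeadChips, per the labels' protocols. The deposited probe intensity values were summarised in GenomeStudio 2010.1, per the submitters' processing notes, without scaling between arrays, and come with a deposited detection p-value for every measurement. The background option used is not given in the sources. The authors' second table holds normalized intensity by an unstated method, ranks probes identically on each array, and served as an alternative. Every column of both tables matched a sample.

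Intensities were corrected with limma 3.58.1 (normexp, negative controls inferred from the detection p-values, offset 16), quantile normalized and taken to log2, in R 4.3.3. Of 45281 probes, 19154 with a detection p under 0.05 on all 3 arrays of at least 1 group were kept. GEO's platform annotation names 1 gene for 34885 probes, several for 18 and none for 10378, and 34807 were found in RefSeq's gene table (GRCm38.p6), which was used for names and gene order. The brightest kept probe stood for a gene.

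One linear model with 6 group means and the replicate number as a block was fitted to all 18 arrays, or to the 12 of replicates 1 and 2, with eBayes, two-sided tests and Benjamini-Hochberg adjustment at 0.05. The block rests on the labels' shared numbers. In a check, deviations from the group means correlated in all 45 same-number pairs (r from 0.298 to 0.958), with a median of -0.40 between other numbers. Deviations in a group of 3 arrays sum to 0, so the negative median follows from the positive values and is no contrast to them. Replicate 3 stands apart in every group, so the check cannot show that numbers 1 and 2 are each paired across groups. Where a probe was not detected on either array of a group, the bound sets that group at the lowest signal detected on each array or the probe's own, whichever was higher. Named genes are 10 set ones, of which 8 were measured (Xist and Ddx3y were not), and called genes; the rule took called genes from all 3 pairs, which gave none, so the genes called in replicates 1 and 2 were named instead. The fit was run on simulated data with a shared replicate effect, array noise below the spread within groups and no replicate that opposed the others. That run checks the code, not how the fit behaves on these data. The members, lists and this choice were made with earlier results of these data known.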

Additional observations from a re-analysis of the deposited data

Results flagged for a closer look

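One gene stood out because its line difference changed with Tc in the fit of replicates 1 and 2. For Krtdap, a gene of keratinocyte differentiation, the uninduced minus the induced line difference was 3.15 on the log2 scale (limma adjusted p = 0.00101, n = 2 pairs) and 1.26 with all 3 pairs (adjusted p = 0.999). It was not detected on any of the 6 uninduced arrays of the nucleolin lines, so its size depends on the background level. With Tc its signals were 8.04, 8.13 and 6.59 in the Ncl-2 line and 4.83, 4.98 and 8.89 in the Ncl-1 line, again with replicate 3 on the other side.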

How the results depend on the processing

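The count of 0 genes between the uninduced lines was also found without the replicate block, with each of the 18 arrays left out, and under each other planned setting except array weights, which gave 245, and replicates 1 and 2 only, which gave 32. All 245 had the sign of replicates 1 and 2, and 26 of them were among the 32. The weight of replicate 3 was 0.634 for Ncl-1 -Tc and 0.229 for Ncl-2 -Tc, in each group below those of replicates 1 and 2. The weighted difference thus leans on the same arrays of replicates 1 and 2, and the shared sign is no separate check. The induced comparison gave 203 with array weights, 313 with replicates 1 and 2 and 1 with the authors' normalized table, and 0 to 29 with 1 array left out. The interaction gave 2 with array weights, 1 with replicates 1 and 2, and 0 to 1 with 1 array left out. Against EGFP, dropping the block gave 104 and 98, replicates 1 and 2 gave 701 and 648, and leaving out 1 array gave 427 to 1051 and 471 to 1422. The 32 calls of replicates 1 and 2 became 3 without the block, 0 with the uninduced arrays of both lines or of the 3 lines (with few residual degrees of freedom), 3 with median scaling, 7 with the authors' table, 143 with array weights and 1 to 28 with 1 array left out, where a lone array is taken to vary like the other groups. Those alternatives were chosen after seeing the data. Leaving out Ncl-1 -Tc replicate 1 or 2 left 5 and 4, Ncl-2 -Tc replicate 1 or 2 left 4 and 1, EGFP +Tc arrays 18 each and Ncl-2 +Tc arrays 19 each. The cause of these moves was not tested. The 32 differences kept their sign under every alternative run on replicates 1 and 2. The median of the chromosome 16 stretch ranged from 0.60 to 0.84 and that of the chromosome 17 run from 1.35 to 1.85. The blocked fit is the main one, so paired values stand in the report.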

Other observations

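The metallothioneins, which bind zinc and copper, were lower in the Ncl-1 line in each of the 3 pairs without passing the test. Mt1 had signals that differed by -0.63, -0.97 and -0.60, with a fitted difference of -0.73 ± 0.20 (SE, n = 3 pairs, limma adjusted p = 0.838), and Mt2 by -0.53, -1.37 and -0.49, with -0.80 ± 0.22 (adjusted p = 0.838). Lef1, a transcription factor of the Wnt pathway, had 1.23, 0.63 and 0.36, with 0.74 ± 0.20 (adjusted p = 0.838). With Tc the Lef1 difference between the lines was 0.05 in replicates 1 and 2. These 3 genes were picked after their values were seen.

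The histone list had the lowest median of the lists with all 3 pairs, -0.51 over 28 measured genes with 0 called, against 0.01 over all genes tested. Its median was -0.09, -0.35 and -0.83 in pairs 1, 2 and 3, so that it was largest in size in the pair that opposed the others elsewhere. With Tc it was -0.13, -0.30 and 0.08. H3c1, a replication-dependent histone H3 gene, had -0.32, -0.79 and -1.38.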
